A study of Mus musculus with 12 samples.

Results

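The genes described here draw neutrophils into a wound or mark the neutrophils that have arrived. They are the rows of the deposited TPM tables named Cxcl1, Cxcl2, Cxcl3, Cxcl5, Csf3, Cxcr2, Csf3r, Fpr1, Ly6g and Retnlg, which are 10 genes of the 55487 in each table. All 10 were found. Cxcl1, Cxcl2, Cxcl3, Cxcl5 and Csf3 form the set of 5 ligands. Cxcr2, Csf3r, Fpr1, Ly6g and Retnlg form the set of 5 receptors and markers. They were described across CAP-treated and sham wounds of mouse skin at day 3 and day 6.

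Neutrophils are the first leukocytes to enter a skin wound in number. Keratinocytes, fibroblasts, endothelial cells and macrophages at the injury release CXC chemokines that carry a glutamate-leucine-arginine (ELR) motif, and these bind CXCR2 on the neutrophil. Granulocyte colony-stimulating factor, encoded by Csf3, acts through its receptor CSF3R to drive the production and release of neutrophils from the bone marrow and prolongs their life. Neutrophils also follow formylated peptides from bacteria and damaged mitochondria through FPR1. In normal healing their number falls again as macrophages take over.

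The wounds were full-thickness punches on the back of male C57BL/6JNarl mice, aged 6 weeks by the study's methods. CAP-treated wounds received 10 µM capsaicin in 200 µL of Pluronic F127 gel (25% in saline) every day, and sham wounds received the gel without capsaicin. All wounds were kept under a dressing, so gel, dressing and daily handling were shared by the 4 groups, and no unwounded or untreated skin was analysed here. The wound with its surrounding tissue was excised on day 3 or day 6, with 3 libraries for each treatment and day, 12 in all. Each mouse carried 2 wounds, and no source used here tells if a pair of libraries came from 1 mouse, so p-values measure the spread between libraries. TPM counts the transcripts of a gene relative to a fixed total of transcripts in each library. It is scaled for transcript length and allows levels of different genes to be set side by side.

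TPM values leave the sequencing depth unknown, so no counting interval could be given. The tables list 0.0001 TPM where no expression was estimated. Sham replicate 1 of day 3 stood apart from the other sham libraries of that day. It was the highest of its group for 9 of the 10 genes and the highest of all 12 libraries for 5. CAP replicate 2 of day 6 was the lowest of its group for 9 genes and the lowest of all 12 libraries for 8, while CAP replicate 3 of day 6 was the highest of that group for 8. The 8 keratinocyte markers took 9.74% of the TPM of CAP replicate 2 of day 6 and between 3.11% and 7.46% in the other 11 libraries. For the 10 genes, each result that turns on one of these libraries is given with and without it. The lists of other genes were counted again without such a library only for CAP against sham at day 3 and at day 6.

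The 4 chemokine genes lie together on chromosome 5 (build GRCm38, all on the + strand) in the order Cxcl5, Ppbp, Pf4, Cxcl3, Cxcl15, Cxcl1, Cxcl2. The 7 genes span 146579 bp. Cxcl5 lies at chr5:90759360-90761624, Cxcl3 at chr5:90786103-90789600, Cxcl1 at chr5:90891241-90893115 and Cxcl2 at chr5:90903871-90905938. Each has 4 exons. The stretches below are shown because the ELR motif is what makes these 4 ligands attract neutrophils. They are 45 bases of coding sequence from exon 2 (GENCODE M21, GRCm38), with the codons of the ELR motif in capitals.

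Cxcl1 (chr5:90891475-90891519): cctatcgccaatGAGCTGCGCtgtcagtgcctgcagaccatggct

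Cxcl2 (chr5:90904121-90904165): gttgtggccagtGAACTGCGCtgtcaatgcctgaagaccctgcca

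Cxcl3 (chr5:90786347-90786391): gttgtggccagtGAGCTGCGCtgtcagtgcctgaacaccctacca

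Cxcl5 (chr5:90759706-90759750): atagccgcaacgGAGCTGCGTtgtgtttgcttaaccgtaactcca

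Over the whole coding sequence, with gaps left out, Cxcl2 and Cxcl3 were identical at 89.7% of aligned positions. Cxcl1 matched Cxcl2 at 78.8% and Cxcl3 at 75.7%, and Cxcl5, the longest of the 4, matched the other three at 60.7% to 66.3%. Of the 31-base stretches in transcripts of Cxcl2, 7.59% also occur in another gene, mostly in Cxcl3, and the share was 5.46% for Cxcl3 and 0% for Cxcl1. The largest shares among the 10 genes were 23.1% for Csf3r, 12.1% for Cxcr2 and 9.55% for Ly6g, the last mostly with Ly6i. Reads from such stretches could have been counted for either gene.

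RefSeq promoters (GRCm38.p6, windows around the start of each gene) were at hand for 8 of the 10 genes, Cxcl5 and Csf3 being the other two. The upstream stretches of Cxcl1, Cxcl2 and Cxcl3 are shown because the 3 genes hold the same letters in the same order. Capitals mark GGAATTTCC, a form of the site bound by NF-kB, which switches on inflammatory genes, and ATAAAA, a form of the TATA box. Each stretch is 100 bases on the + strand and ends at the base before the first annotated base of the gene, taken as the earlier of the GENCODE and RefSeq starts, which for Cxcl3 is the RefSeq start at base 90786101.

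Cxcl1 (chr5:90891141-90891240): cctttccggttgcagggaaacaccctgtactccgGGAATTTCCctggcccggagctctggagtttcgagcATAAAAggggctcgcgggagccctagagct

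Cxcl2 (chr5:90903771-90903870): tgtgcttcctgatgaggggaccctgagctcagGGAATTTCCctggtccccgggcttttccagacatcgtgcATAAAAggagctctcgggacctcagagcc

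Cxcl3 (chr5:90786001-90786100): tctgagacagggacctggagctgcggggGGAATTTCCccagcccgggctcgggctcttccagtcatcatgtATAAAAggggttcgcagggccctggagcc

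GGAATTTCC, searched on both strands, occurs in 104 of 32851 promoter windows (0.317%) and in 3 of the 8 genes. ATAAAA, searched on the gene's strand only, occurs in 11.1% of the windows and in the same 3 genes. The first letter of GGAATTTCC lies 66, 68 and 72 bases before the first annotated base of Cxcl1, Cxcl2 and Cxcl3, and that of ATAAAA lies 30, 29 and 29 bases before it. Counted from the RefSeq starts instead, they lie at −70, −96 and −72 and at −34, −57 and −29. The AP-1 letters TGANTCA are in 7.81% of the windows and in 0 of the 8 genes, and the C/EBP letters TTGCNNAA are in 10.8% and in Ly6g and Retnlg. GGAATTTCC and ATAAAA were searched as fixed letters, while N in the other patterns stands for any base. Cxcl1, Cxcl2 and Cxcl3 are also alike in sequence, so their matches are not independent and the shares of windows do not test them. A match describes the letters in the window and is not evidence of binding.

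In these wounds the mean of every one of the 10 genes was over the filter on low values of 0.3 TPM in every group, except that of Ly6g in CAP at day 6. Csf3r was the most abundant of the 10 genes in both groups of day 3, with means of 93.4 ± 49.8 TPM in sham and 95.7 ± 11.0 TPM in CAP (SD, n = 3). Cxcl2 was the most abundant in both groups of day 6. Ly6g was the least abundant in every group, at most 1.21 TPM, and reached 1 TPM in 1 library of 12. The mean was highest in the sham group of day 6 for 7 genes, Cxcl1, Cxcl2, Cxcl3, Csf3, Cxcr2, Csf3r and Fpr1, and lowest in the CAP group of day 6 for 6 genes, Cxcl1, Cxcl5, Cxcr2, Csf3r, Ly6g and Retnlg. With the 4 group means of each gene put in order, neighbouring groups overlapped in 27 of 30 cases. The exceptions were Cxcl5 and Ly6g between the sham and CAP groups of day 6, and Csf3 between the sham groups of day 6 and day 3. Neighbouring groups were not counted in this way over all genes, so the count only describes the 10 genes.

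At day 6, transcripts of 3 ligands, Cxcl5, Cxcl1 and Csf3, were lower in CAP-treated than in sham wounds, by 3.13- to 3.80-fold. The CAP and sham libraries did not overlap for these 3 genes. None of the 10 was called higher. A gene was called when limma gave an unadjusted p under 0.05 with a difference of at least 2-fold on the scale log2(TPM + 0.1). The cut-offs are those of the study, whose methods name DEseq or DEseq2 for the test and not limma on this scale. By that rule 3 of the 9 genes tested were called, where 3.8% of all 18323 genes tested were called and 2.34% were called lower. Non-overlap in the lower direction was found for 3 of 9 genes and for 18% of all genes. Adjusted over all genes (Benjamini-Hochberg), 0 of the 18323 genes had p under 0.05, against 3517 at the unadjusted p under 0.05, so the calls rest on the unadjusted p.

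Cxcl5 encodes the ELR chemokine LIX. It measured 36.9, 56.5 and 17.2 TPM in sham replicates 1, 2 and 3 of day 6, and 10.2, 7.95 and 8.52 TPM in the CAP replicates. The CAP libraries were all low and lay close together, and the lowest sham library was still above the highest of them. The means were 36.9 ± 19.6 TPM in sham and 8.88 ± 1.15 TPM in CAP (SD, n = 3), a log2 difference of −1.89 (SE 0.40, limma p = 0.00209, adjusted p = 0.205, exact permutation p = 0.1). With 3 libraries against 3 the permutation test cannot give a p under 0.1.

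Cxcl1, the chemokine KC, measured 38.0, 51.2 and 36.5 TPM in sham and 20.1, 6.83 and 16.6 TPM in CAP. Again every CAP library was below every sham library. The means were 41.9 ± 8.05 TPM and 14.5 ± 6.88 TPM (SD, n = 3), a log2 difference of −1.65 (SE 0.39, limma p = 0.00388, adjusted p = 0.206, exact permutation p = 0.1).

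Csf3 (chr11:98701263-98703629, + strand, 5 exons) is the growth factor gene of the set. It measured 8.15, 10.5 and 7.60 TPM in sham and 3.30, 0.897 and 3.51 TPM in CAP, with no overlap. The means were 8.75 ± 1.54 TPM and 2.57 ± 1.45 TPM (SD, n = 3), a log2 difference of −1.93 (SE 0.49, limma p = 0.00582, adjusted p = 0.207, exact permutation p = 0.1). The calls of Cxcl5, Cxcl1 and Csf3 held when any 1 of the 6 libraries was left out.

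Cxcl2, which encodes MIP-2, and its near copy Cxcl3 did not pass the test at day 6, and in both the third CAP library was as high as the sham wounds. Cxcl2 measured 170.4, 205 and 119.5 TPM in sham and 55.4, 15.3 and 229 TPM in CAP. Cxcl3 measured 109, 73.2 and 86.3 TPM in sham and 29.5, 12.2 and 91.6 TPM in CAP. In each gene CAP replicates 1 and 2 lay under all sham libraries and CAP replicate 3 did not. The log2 difference was −1.47 for Cxcl2 (95% interval −3.53 to 0.59, limma p = 0.135, exact permutation p = 0.4) and −1.46 for Cxcl3 (SE 0.65, limma p = 0.0604, exact permutation p = 0.3).

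**Figure D1:**
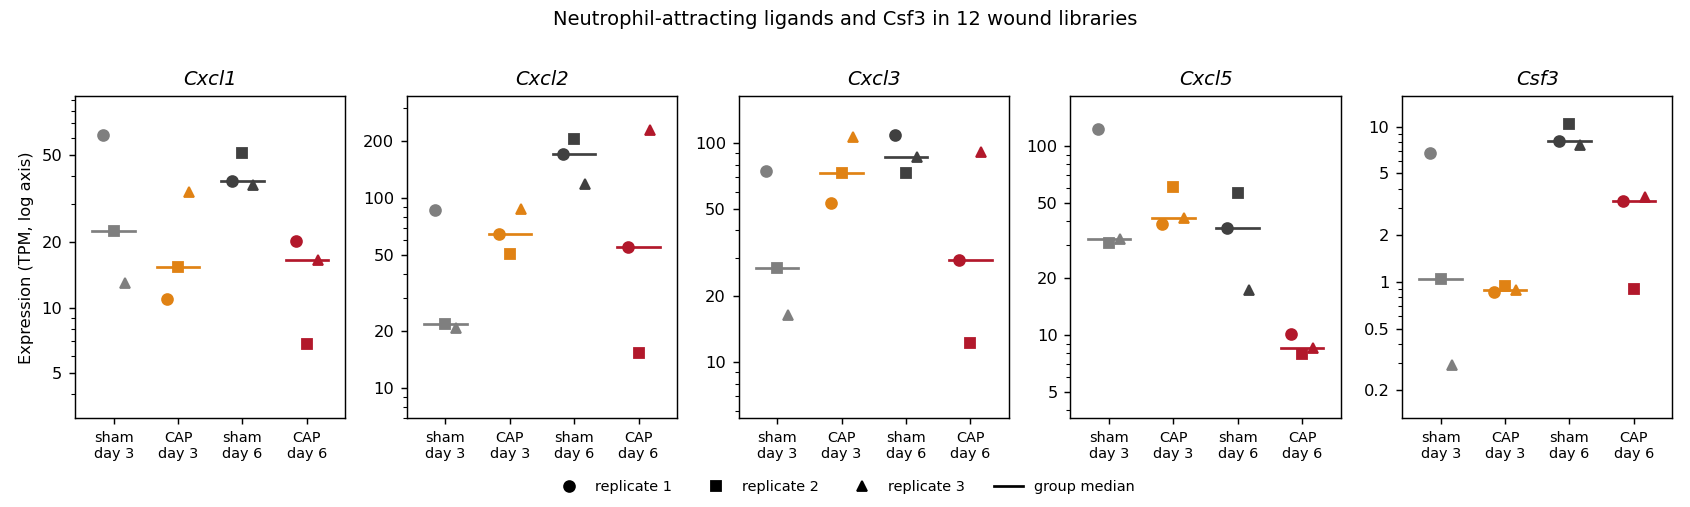
TPM on a log axis for each of the 5 ligands, with 1 panel per gene and the 4 groups along the horizontal axis. Symbols are the 3 replicates of a group and horizontal lines are group medians. The 3 CAP libraries of day 6 lie under all sham libraries of day 6 for Cxcl1, Cxcl5 and Csf3, while CAP replicate 3 reaches the sham values for Cxcl2 and Cxcl3.

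The receptors and markers are transcribed by the neutrophils themselves, though other cells of a wound may also transcribe some of them. At day 6, 0 of the 4 that could be tested were called, where 3.8% of all genes tested were. The values of Cxcr2, Csf3r, Fpr1 and Retnlg overlapped between CAP and sham, where 26% of all genes had no overlap in either direction. In RNA of whole tissue, fewer neutrophils, less RNA per neutrophil and a change in the share of other cells cannot be told apart.

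Cxcr2 (chr1:74153989-74161246, + strand), the receptor of the ELR chemokines, measured 42.4, 55.0 and 24.2 TPM in sham and 26.2, 17.7 and 37.3 TPM in CAP. Csf3r (chr4:126024550-126044440, + strand), the receptor of the Csf3 product, measured 106, 146 and 89.8 TPM in sham and 37.1, 26.0 and 142 TPM in CAP. In both genes CAP replicate 2 was the lowest library and CAP replicate 3 was within the sham range. The log2 difference was −0.57 for Cxcr2 (95% interval −1.42 to 0.29, limma p = 0.162, exact permutation p = 0.3) and −1.11 for Csf3r (95% interval −2.51 to 0.29, limma p = 0.102, exact permutation p = 0.3).

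Fpr1 (chr17:17876471-17883940, − strand), the formyl peptide receptor, measured 14.0, 24.3 and 18.3 TPM in sham and 7.38, 2.17 and 22.3 TPM in CAP. Retnlg (chr16:48872621-48874496, + strand), a resistin-like gene transcribed in bone marrow and neutrophils, measured 12.9, 10.4 and 7.03 TPM in sham and 3.33, 5.26 and 11.8 TPM in CAP. For each gene 2 CAP libraries were under all sham libraries and the third was not. The log2 difference was −1.35 for Fpr1 (95% interval −3.12 to 0.42, limma p = 0.114, exact permutation p = 0.3) and −0.72 for Retnlg (95% interval −1.80 to 0.36, limma p = 0.16, exact permutation p = 0.3).

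Ly6g (chr15:75155240-75159126, + strand) encodes the surface antigen by which mouse neutrophils are usually sorted. Its transcript was near the lower limit of these tables, at 0.498, 0.298 and 0.664 TPM in the sham libraries of day 6. The CAP libraries listed 0.124, 0.0001 and 0.161 TPM, all under the lowest sham value. The CAP mean was under 0.3 TPM, so Ly6g was not tested at day 6. Without the filter limma gave a log2 difference of −1.65 (SE 0.48, adjusted p = 0.328), a value that depends on the 0.1 TPM added before the logarithm because CAP replicate 2 is listed at 0.0001.

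CAP replicate 3 decided how many genes were called at day 6. Without it 8 of the 9 genes were called lower, all but Cxcr2, where 8.17% of all genes were called. Leaving out any other library of day 6 left 3. Without CAP replicate 2, the library with the most keratinocyte RNA, the log2 difference was −1.18 for Cxcl1, −1.32 for Csf3 and −1.82 for Cxcl5, and the same 3 genes stayed called.

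**Figure D2:**
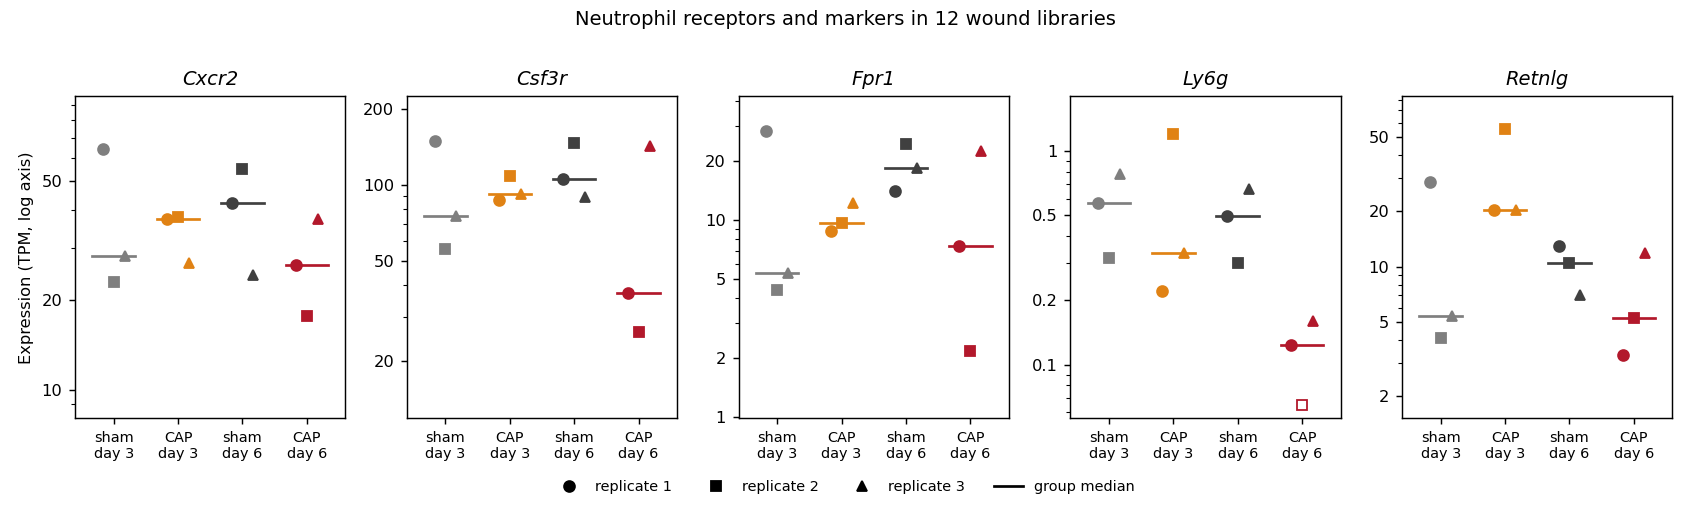
TPM on a log axis for each of the 5 receptors and markers, drawn as for the ligands. The open square marks CAP replicate 2 of day 6 for Ly6g, listed at 0.0001 TPM and placed at the lower edge of the panel. CAP replicate 3 of day 6 lies within the range of the sham libraries of day 6 for Cxcr2, Csf3r, Fpr1 and Retnlg.

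At day 3, no ligand, receptor or marker differed between CAP-treated and sham wounds by the same rule. It called 0 of 10 genes, where 1.58% of all 18330 genes tested were called, and 0 of 10 were free of overlap, against 11.6% of all genes. Among the 10 genes 0 reached an unadjusted p under 0.05, as 6.6% of all genes did, and 0 an adjusted p under 0.05, as 0.0164% or 3 genes did. Of the log2 differences, 5 were below 0 and 5 above, from −0.56 for Cxcl1 to 1.70 for Retnlg.

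The values of day 3 show how far sham replicate 1 stood from the other two. Cxcl5 measured 123, 30.7 and 32.2 TPM in sham replicates 1, 2 and 3 and 38.8, 61.0 and 41.4 TPM in CAP. Cxcl1 measured 62.1, 22.4 and 12.9 TPM in sham and 10.9, 15.3 and 33.7 TPM in CAP. Csf3 measured 6.83, 1.04 and 0.290 TPM in sham and 0.863, 0.935 and 0.889 TPM in CAP. In these 3 ligands the sham libraries enclosed most or all of the CAP values. The log2 differences were −0.10 for Cxcl5 (95% interval −1.36 to 1.15), −0.56 for Cxcl1 (−2.05 to 0.94) and −0.55 for Csf3 (−2.81 to 1.72).

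Cxcl2 measured 86.8, 21.7 and 20.9 TPM in sham and 64.5, 51.0 and 87.6 TPM in CAP at day 3. Cxcl3 measured 74.4, 27.1 and 16.5 TPM in sham and 53.4, 73.0 and 107 TPM in CAP. Both near copies were higher in every CAP library than in sham replicates 2 and 3, and sham replicate 1 was among the CAP values. The log2 difference was 0.95 for Cxcl2 (95% interval −0.35 to 2.26, limma p = 0.126, exact permutation p = 0.3) and 1.21 for Cxcl3 (SE 0.54, limma p = 0.0607, exact permutation p = 0.3).

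Retnlg measured 28.8, 4.09 and 5.43 TPM in sham and 20.3, 55.7 and 20.2 TPM in CAP. Fpr1 measured 28.3, 4.41 and 5.39 TPM in sham and 8.77, 9.69 and 12.2 TPM in CAP. In both genes the CAP libraries were above sham replicates 2 and 3. The log2 difference was 1.70 for Retnlg (95% interval −0.12 to 3.52, limma p = 0.0625, exact permutation p = 0.3) and 0.20 for Fpr1 (95% interval −1.37 to 1.77, limma p = 0.77, exact permutation p = 1).

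Cxcr2 measured 64.2, 23.0 and 28.0 TPM in sham and 37.5, 38.0 and 26.6 TPM in CAP. Csf3r measured 149.7, 55.4 and 74.9 TPM in sham and 87.1, 108 and 91.8 TPM in CAP. Ly6g measured 0.573, 0.315 and 0.780 TPM in sham and 0.221, 1.21 and 0.333 TPM in CAP. These were the 3 receptors and markers with log2 differences nearest to 0, at −0.04 for Cxcr2 (95% interval −0.94 to 0.85), 0.16 for Csf3r (−0.65 to 0.97) and −0.15 for Ly6g (−1.60 to 1.30). Without sham replicate 1, 4 of the 10 genes were called higher in CAP, namely Cxcl2, Cxcl3, Fpr1 and Retnlg, where 1.47% of all genes were called, and their log2 differences were 1.63, 1.82, 1.04 and 2.56. Leaving out any other library of day 3 left 0.

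The CAP difference was tested between the days in 1 fit of the 12 libraries, as the difference at day 6 minus the difference at day 3. It was below 0 for all 10 genes, as for 56.7% of all genes tested, and for Cxcl3, Cxcl5 and Retnlg it passed the threshold. Here 3 of 10 genes were called, where 4.6% of all 19046 genes tested were called and 2.54% were called in this direction. The value was −2.67 for Cxcl3 (95% interval −4.77 to −0.57), −1.79 for Cxcl5 (95% interval −3.41 to −0.16) and −2.42 for Retnlg (95% interval −4.62 to −0.23), each with an adjusted p of 0.423. By limma 0 of the 19046 genes had an adjusted p under 0.05, against 2179 at the unadjusted level. In the same contrast all 5 erythroid genes tested were called lower, with a median of −3.22, while 4 of 8 T and NK cell genes and 2 of 8 keratinocyte genes were called higher, where 2.07% of all genes were. Their part in the values of the 10 genes was not tested.

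In Cxcl3 and Retnlg the log2 difference of the means was above 0 at day 3 and below 0 at day 6, neither passing the test by itself, and in Cxcl5 it was near 0 at day 3. The value was −2.43 for Cxcl2 (95% interval −4.98 to 0.13), and −1.09 for Cxcl1 (95% interval −2.91 to 0.73), which was called at day 6 but not shown to differ between the days. Cxcl3 was called whichever library was left out. Cxcl5 and Retnlg each stayed called in 5 of 12 such fits. The count was 7 without sham replicate 1 of day 3, where 6.42% of all genes were called, and 5 without CAP replicate 3 of day 6, where 8.59% were. It was 1 without any 1 of sham replicates 2 and 3 and CAP replicate 2 of day 3, sham replicates 1 and 2 of day 6 and CAP replicate 2 of day 6. In these fits 2.85% to 4.35% of all genes were called.

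**Figure D3:**
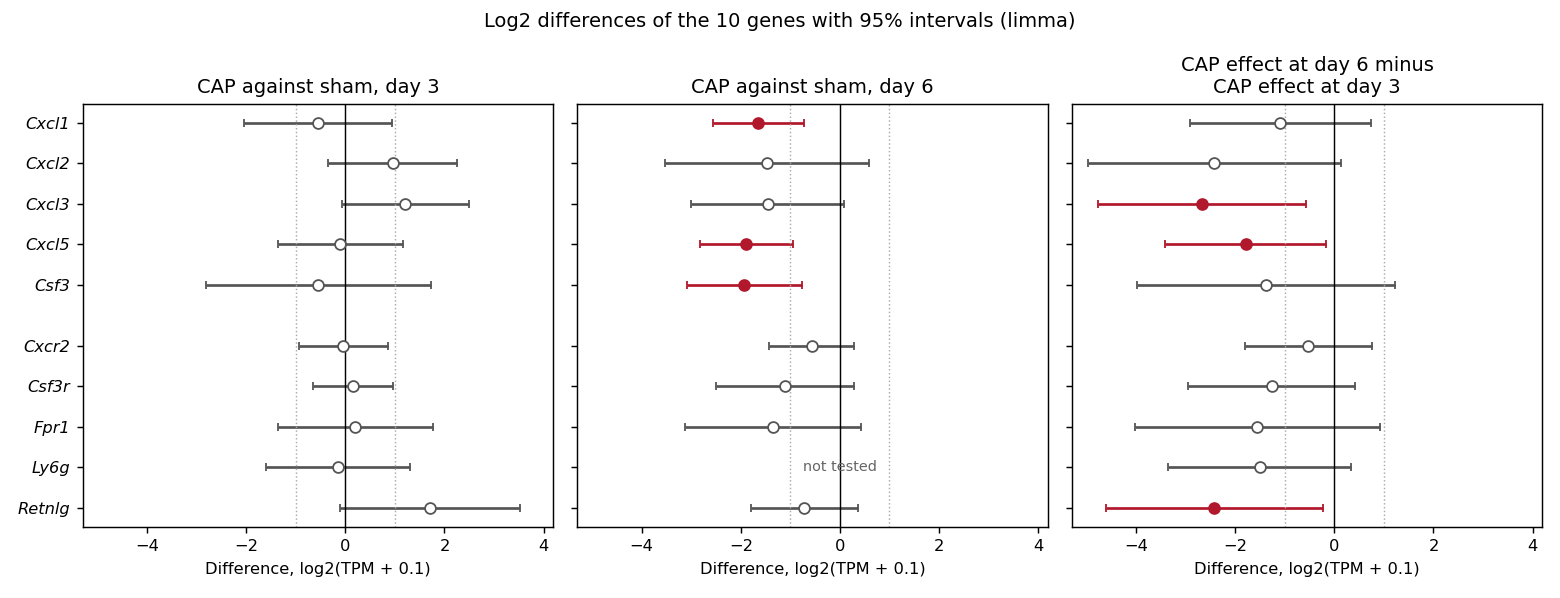
Log2 differences of the 10 genes with 95% intervals from limma, for CAP against sham at day 3, at day 6 and for the CAP difference at day 6 minus that at day 3. Filled red points passed the threshold, dotted lines mark a 2-fold difference and Ly6g was not tested at day 6. The intervals of day 3 all include 0, and those of Cxcl1, Cxcl5 and Csf3 at day 6 lie below 0.

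From day 3 to day 6 in the sham wounds, Cxcl2, Cxcl3 and Csf3 were called higher, and none of the 10 genes was called lower. By the rule 3 of 10 genes were called, where 4.73% of all 19123 genes tested were called and 2.75% were called higher. The log2 difference was 2.24 for Cxcl2 (SE 0.53, limma p = 0.00373, adjusted p = 0.0839, exact permutation p = 0.1), 1.46 for Cxcl3 (SE 0.49, limma p = 0.0208, adjusted p = 0.203, exact permutation p = 0.2) and 2.59 for Csf3 (SE 0.92, limma p = 0.0246, adjusted p = 0.218, exact permutation p = 0.1). The libraries of the days did not overlap for Cxcl2 and Csf3, 2 of 10 genes where 11.2% of all genes had no overlap in this direction, and sham replicate 1 of day 3 lay among the day 6 values for Cxcl3.

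The receptors and markers had log2 differences between −0.14 and 1.06 over the same days and none was called, where 4.73% of all genes were. Markers of other cells moved over these days too, with 5 of 7 endothelial genes (median 1.33) and 5 of 5 erythroid genes (median 2.38) called higher, all 10 of them also with an adjusted p under 0.05 by limma. Their part in the values of the ligands was not tested. The sham result depends on single libraries. Without sham replicate 1 of day 3, 6 genes were called higher, with Cxcl1, Fpr1 and Retnlg added, where 5.71% of all genes were called. The count was 1, Cxcl2 alone, without sham replicate 2 or replicate 3 of day 3 or sham replicate 1 of day 6. In these fits 4.58%, 4.66% and 4.82% of all genes were called. The call of Csf3 held in 1 of the 6 fits with a library left out.

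In the CAP-treated wounds Cxcl5 and Retnlg fell from day 3 to day 6. Cxcl5 went from 47.1 ± 12.1 TPM to 8.88 ± 1.15 TPM (SD, n = 3), a log2 difference of −2.37 (SE 0.20, limma p = 8.65e-06, adjusted p = 0.0545, exact permutation p = 0.1). Retnlg went from 32.1 ± 20.4 TPM to 6.79 ± 4.44 TPM, a log2 difference of −2.24 (SE 0.56, limma p = 0.00551, adjusted p = 0.277, exact permutation p = 0.1). Neither gene's values overlapped between the days, and both calls held whichever library was left out. By the rule 2 of 10 genes were called, where 3.52% of all 18906 genes tested were called and 1.9% were called lower.

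Cxcl5 and Retnlg were thus lower at day 6 without overlap, where 9.83% of all genes were. Ly6g had no overlap either, but it passed the filter only through its day 3 libraries and its difference depends on the 0.1 TPM added, so it is given as a description. Csf3 was the only gene of the 10 with a value above 0 over these days in CAP, at 1.21 (95% interval −0.01 to 2.43, limma p = 0.0511, exact permutation p = 0.2). Without CAP replicate 3 of day 6, 5 genes were called lower, Cxcl3, Cxcl5, Csf3r, Fpr1 and Retnlg, where 5.7% of all genes were called.

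With day as a term, CAP was compared with sham over all 12 libraries. Cxcl1 was called lower, with a mean of 17.2 TPM in CAP and 37.2 TPM in sham, a log2 difference of −1.10 (SE 0.43, limma p = 0.0251, adjusted p = 0.263, exact permutation p = 0.055 within days). The smallest p that this permutation test can give is 0.005. It was 1 of 10 genes called, where 1.08% of all 18559 genes tested were called and 0.9% were called lower. Cxcl5 fell just short of the 2-fold limit, with a log2 difference of −0.997 (SE 0.44, limma p = 0.0436, exact permutation p = 0.09). Retnlg was the only gene with a value above 0, at 0.49 (95% interval −0.81 to 1.79). The call of Cxcl1 was lost without sham replicate 1 or CAP replicate 1 of day 3, or without sham replicate 2 or CAP replicate 2 of day 6. In these fits 0 of the 10 genes were called, where 0.797% to 1.32% of all genes were. Cxcl1 was 1 of 3 genes called without sham replicate 2 or replicate 3 of day 3, where 1.56% and 1.24% of all genes were. It was 1 of 2 without CAP replicate 2 or replicate 3 of day 3 or sham replicate 3 of day 6, where 1%, 1.15% and 1.02% were.

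Libraries with a high sum of ligands mostly had a high sum of receptors and markers. The summed TPM of the 5 ligands ran from 43.2 in CAP replicate 2 of day 6 to 396 in sham replicate 2 of day 6. The summed TPM of the 5 receptors and markers ran from 51.2 in the same CAP library to 272 in sham replicate 1 of day 3. In the CAP group of day 6 the ligand sums were 118, 43.2 and 349 TPM for replicates 1, 2 and 3, and the receptor and marker sums were 74.1, 51.2 and 214 TPM, so CAP replicate 3 was high in both. In the sham group of day 6 they were 363, 396 and 267 TPM and 175, 236 and 140.0 TPM.

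**Figure D4:**
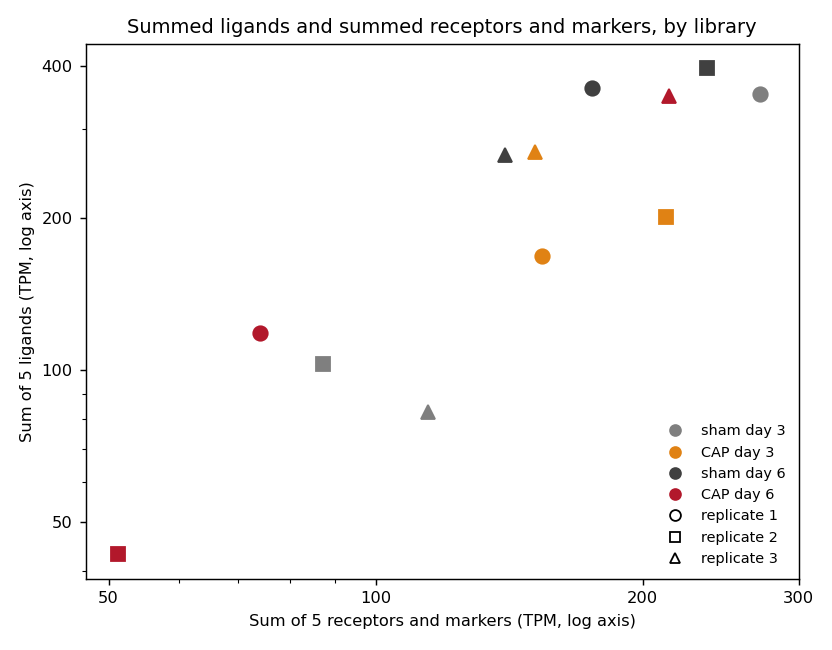
Summed TPM of the 5 ligands against the summed TPM of the 5 receptors and markers, both on log axes, with 1 symbol per library. Colours are the 4 groups and shapes the replicates. CAP replicates 1 and 2 of day 6 lie at the lower left with sham replicates 2 and 3 of day 3, and CAP replicate 3 of day 6 lies with the sham libraries of day 6.

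After each group's mean was taken off, the 45 pairs among the 10 genes had a median Pearson r of 0.669 over the 12 libraries, which share their depth and tissue makeup and make up 4 groups, so this is a description. The pair with the highest r was Cxcl2 and Fpr1, at 0.955, followed by Cxcl2 and Cxcl3, at 0.927. Ly6g, the gene nearest to the lower limit, had the lowest, at 0.0832 with Cxcl5. Of the other genes, 16160 averaged 1 TPM or more, and those most like the mean standardised level of the ligands, now with the group means left in, were Ing1 (r = 0.974), Mfap3 (r = 0.957), Arrb1 (r = 0.949), Ppp1r3d (r = 0.949) and Nfil3 (r = 0.946). Those most like the receptors and markers were Nlrp12 (r = 0.960), Gsr (r = 0.959), Mcemp1 (r = 0.959), Sorl1 (r = 0.959) and Sfxn5 (r = 0.949). With the group means taken off, the values of these 10 genes were between 0.910 and 0.959. Ing1 ranged only from 25.9 to 31.9 TPM over the 12 libraries, while Nlrp12 ranged from 0.0494 to 2.76 TPM.

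Other genes of neutrophils and of their recruitment were taken from lists, and other cells of a wound may also transcribe some of them. Of 22 further genes of mature neutrophils, 7 were called lower in CAP at day 6 and 0 higher, and all 22 had a log2 difference below 0, with a median of −1.30 where the median of all genes tested was −0.12 and 2.34% were called lower. The 4 with the smallest p were Mmp9, gelatinase B, at −1.19 (SE 0.21), Cd177, a neutrophil surface antigen, at −2.44 (SE 0.80), Slfn4, a Schlafen gene of myeloid cells, at −1.57 (SE 0.52), and Clec4d, a C-type lectin receptor, at −1.21 (SE 0.46). Mmp9 measured 237, 224 and 147 TPM in sham and 84.5, 75.9 and 102 TPM in CAP, with no overlap. Cd177 measured 1.63, 2.24 and 1.42 TPM in sham and 0.272, 0.0001 and 0.944 TPM in CAP. Its log2 difference thus depends on the 0.1 TPM added before the logarithm. The count was 2 of 22 without CAP replicate 2, where 1.69% of all genes were called in either direction, and 15 of 19 without CAP replicate 3, where 8.17% were. Of 10 genes listed for early granules, most of them made chiefly in bone marrow precursors, 6 passed the filter and 0 were called. Their median was −1.22, and −0.35 over 7 genes without CAP replicate 2. Mpo and Elane of this list were at 0.0001 TPM in all CAP libraries of day 6, and in all those of day 3. Elane was also at 0.0001 TPM in all sham libraries of day 6, where Mpo measured only 0.253, 0.258 and 0.318 TPM. Lcn2 was its most abundant gene that day, at 14.8 to 349 TPM, so the list does not stand for early granules alone.

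Neutrophils leave the blood by rolling on selectins and binding integrin ligands. Of 13 adhesion genes, 7 were called lower at day 6 and 0 higher, where 2.34% and 1.46% of all genes were. They were led by Icam1, which binds neutrophil integrins, at −1.08 (SE 0.21), Selp, which encodes P-selectin, at −1.11 (SE 0.31), Vcam1 at −1.20 (SE 0.36) and Icam2 at −1.13 (SE 0.40). Icam1 measured 67.1, 64.2 and 58.5 TPM in sham and 32.4, 21.3 and 38.4 TPM in CAP. Without CAP replicate 2, 0 of the 13 were called, with a median log2 difference of −0.52 in place of −1.004, and without CAP replicate 3, 10 were. In these fits 1.69% and 8.17% of all genes were called in either direction.

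Of 12 other attractants and receptors tested, 2 were called lower, where 2.34% of all genes were. They were Ppbp, a platelet chemokine, at −1.15 (SE 0.30) and C5ar2, a receptor for the complement fragment C5a, at −3.72 (SE 1.47). C5ar2 was listed at 0.0001 TPM in CAP replicates 1 and 2 and at 5.24 TPM in replicate 3. The count was 1 without CAP replicate 2 and 6 of 11 without CAP replicate 3, where 1.69% and 8.17% of all genes were called in either direction. Of 11 cytokines and cytokine receptors that act upstream, 1 was called lower, Il6, at −1.66 (SE 0.49). Without CAP replicate 3 there were 5 lower and 1 higher, beside the same 8.17% of all genes. The 7 mature neutrophil, 7 adhesion, 2 attractant and 1 cytokine genes all had adjusted p-values of 0.205 or more.

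At day 3 the same lists held few calls, where 0.426% of all genes were called higher in CAP and 1.16% lower. Of 21 mature neutrophil genes tested, Mmp8, neutrophil collagenase, was called higher in CAP at 1.99 (SE 0.52), Ccrl2, a receptor that holds chemerin at the cell surface, higher at 1.19 (SE 0.45), and Slfn4 lower at −2.18 (SE 0.45). Ppbp was called higher at 1.19 (SE 0.45) among 12 attractants and receptors. None of the 13 adhesion genes, the 12 upstream cytokines and receptors or the 4 early granule genes tested was called. Without sham replicate 1, 2 attractants and receptors and 1 early granule gene were called higher, where 1.47% of all genes were called in either direction.

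Over the days, the genes of these lists that were called were mostly higher at day 6 in sham and mostly lower in CAP. In sham, 7 of the 22 mature neutrophil genes were called higher at day 6 and 1 lower, where 2.75% and 1.98% of all genes were, with a median log2 difference of 1.09. The 4 with the smallest p were Ccrl2 at 2.48 (SE 0.22, adjusted p = 0.0101), Slfn4 at −2.08 (SE 0.21, adjusted p = 0.0129), Mmp9 at 1.29 (SE 0.24, adjusted p = 0.0423) and G0s2 at 1.23 (SE 0.26, adjusted p = 0.0579), by limma. Of 6 early granule genes 3 were called higher, Ltf, which encodes lactoferrin, Ngp and Lcn2, and 1 lower, Cebpe, a transcription factor of granule formation, at −1.23 (SE 0.45). Lcn2 was at 1.60 (SE 0.42). Ltf and Ngp passed the filter only through day 6 and were at most 0.192 TPM and 0.0789 TPM in sham at day 3, so their calls rest on the 0.1 TPM added. Among the 12 upstream cytokines and receptors Tnf was called higher at 1.15 (SE 0.23) and Il1b at 1.45 (SE 0.55). Of 12 attractants and receptors 3 were called higher and 1 lower, and of 13 adhesion genes 1 was called higher.

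In CAP, 5 of the 22 mature neutrophil genes were called lower at day 6 than at day 3 and 0 higher, where 1.9% and 1.62% of all genes were, with a median of −0.36. Of 6 early granule genes 1 was called lower, of 12 attractants and receptors 4, of 13 adhesion genes 2, and of 12 upstream cytokines and receptors 1, with 1 higher. The lower one, Csf2, passed the filter only through day 3. The attractants were led by the platelet chemokine genes Ppbp at −5.37 (SE 0.31, adjusted p = 0.0076) and Pf4 at −2.32 (SE 0.22, adjusted p = 0.0555), which lie between Cxcl5 and Cxcl3 in the chemokine cluster. Tested between the days, where 2.54% of all genes were called lower, the CAP difference was called lower at day 6 for 4 of 22 mature neutrophil genes, Mmp9 at −1.42 (SE 0.31), Mmp8 at −3.78 (SE 1.10), Clec4d at −1.96 (SE 0.66) and Ccrl2 at −2.60 (SE 0.97). The count was 1 of 6 for the early granule genes, 4 of 12 for the attractants and receptors, 2 of 13 for the adhesion genes and 1 of 12 for the upstream cytokines and receptors, each with an adjusted p of 0.423 or more. Over both days 2 of 22 mature neutrophil genes and 1 of 12 upstream cytokines and receptors were called lower, where 0.9% of all genes were, and 0 of the other three lists.

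**Figure D5:**
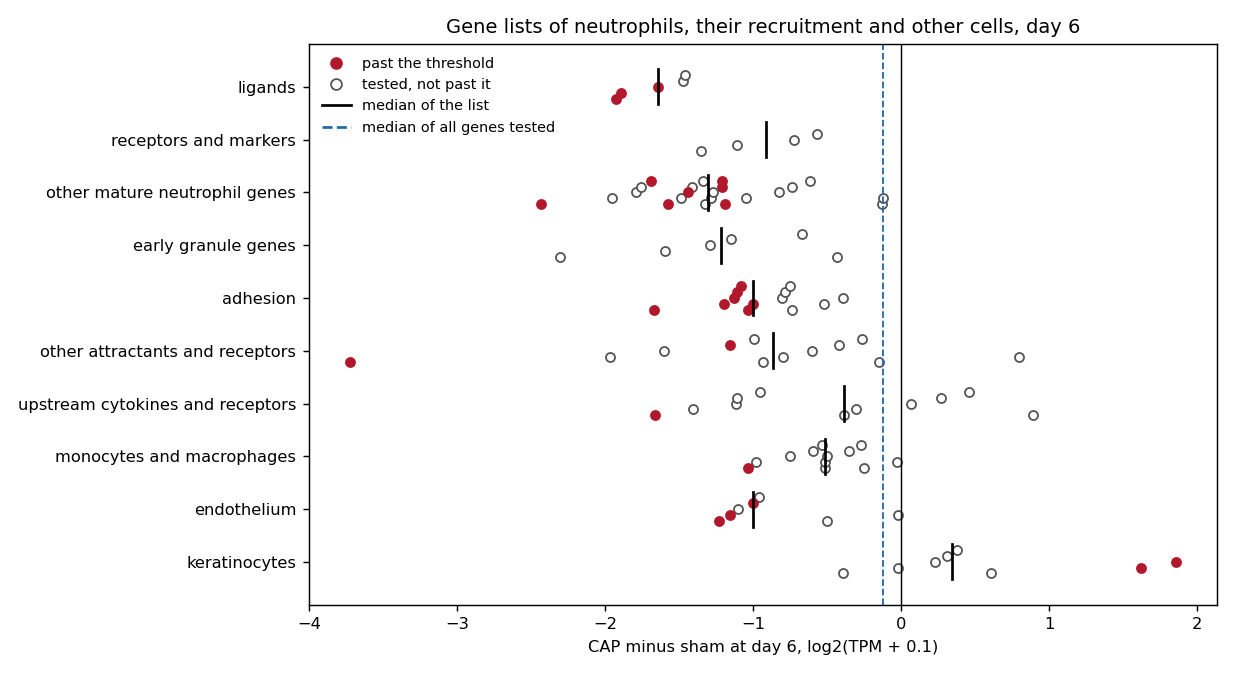
Log2 difference between CAP and sham at day 6 for each gene of 10 lists, with 1 point per gene tested, filled red where it passed the threshold. Black bars are the medians of the lists and the dashed blue line is the median of all genes tested, −0.12. All points of the ligands, the receptors and markers, the other neutrophil genes and the adhesion genes lie below 0, as do all points of the monocyte and macrophage and the endothelial genes, and Krt1 and Krt10 stand at the right among the keratinocyte genes.

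Markers of other cells moved at day 6 as well, and values below 0 for a whole list were not limited to neutrophil genes. All 12 monocyte and macrophage, 7 endothelial, 7 skeletal muscle, 5 erythroid and 3 platelet genes tested were below 0, as were 65.7% of all genes. The summed keratinocyte list was 31106 to 38279 TPM in sham and 47106 to 97417 TPM in CAP without overlap. Of its 8 genes 2 were called higher, Krt1 and Krt10 of the differentiating epidermis, where 1.46% of all genes were called higher and 2.34% lower. The summed endothelial list was 255 to 349 TPM in sham and 82.1 to 215 TPM in CAP without overlap, and 3 of 7 genes were called lower, Pecam1, which is also among the adhesion genes, Cdh5 and Emcn. Of 12 monocyte and macrophage genes, 1 was called lower, Ccr2, and their sums of 7264 to 10286 TPM in sham and 4339 to 9498 TPM in CAP overlapped. Without CAP replicate 2, the counts were 2 of 8 keratinocyte, 0 of 7 endothelial and 0 of 12 monocyte and macrophage genes, where 1.69% of all genes were called. Without CAP replicate 3 the counts were 2, 5 and 2, with all 5 erythroid genes lower, where 8.17% of all genes were called. Of the remaining lists, 0 of 8 T and NK cell, 0 of 6 mast cell, 0 of 8 fibroblast and matrix, 0 of 5 erythroid and 0 of 2 eosinophil genes tested were called, with 1 of 7 skeletal muscle genes lower (Myh4) and 1 of 3 platelet genes lower (Ppbp). Epx and Prg2, which define eosinophils, were listed at 0.0001 in all libraries of day 6. The part of keratinocyte, endothelial and macrophage content in the differences of the ligands and markers was not tested.

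At day 3 the erythroid list was 514 to 753 TPM in sham and 2357 to 2803 TPM in CAP. Its 5 genes tested were called higher, where 0.426% of all genes were called higher and 1.16% lower. Of 12 monocyte and macrophage genes 3 were called lower, Ccr2, Ly6c2 and Cx3cr1, and of 8 T and NK cell genes 3 were called lower, Gzma, Ncr1 and Trac. Of the other lists 1 of 3 platelet genes was called higher (Ppbp) and none of the keratinocyte, fibroblast, endothelial, muscle, mast cell or eosinophil genes tested was called. Their part in the neutrophil genes of day 3 was not tested either.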

How the data were processed

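Total RNA (TRIzol) went into mRNA libraries of the SureSelect XT HS2 type, read from both ends. The processing notes of the submitters name bcl2fastq, Trimmomatic 0.36 and the build mm10, and the study's methods name StringTie. Neither the aligner nor the strand setting was found in the sources used here. The authors deposited TPM, 1 table per library, with 0.0001 in place of 0. TPM carries no depth. The tables hold 0 other columns of per-sample values.

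Libraries were grouped by treatment and day, as labelled. The 6 comparisons (CAP against sham at day 3, at day 6 and over both days, day 6 against day 3 in sham and in CAP, and the difference of the CAP differences) were fitted over all genes with limma 3.58.1 in R 4.3.3, with trend and without robust estimation, on log2(TPM + 0.1). This scale understates changes of low genes. Genes needed a mean of 0.3 TPM in both groups for CAP against sham, and over the libraries compared otherwise. A 2-sided exact permutation test over all divisions stood beside each gene. The fit was checked on simulated data. Named genes were the 10, and of other lists those called, at most 4 by p, plus list-defining genes. The 10 genes and all lists were chosen with earlier results of these data known. Sequences came from RefSeq and GENCODE M21. Alternatives were pseudocounts of 1 and 0.01 TPM, no filter, median-ratio scaling, a joint fit, a replicate block and leaving out each library, and, chosen after seeing the data, a call on the adjusted p and list counts without single libraries.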

Additional observations from a re-analysis of the deposited data

Results flagged for a closer look

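The difference between the CAP effects of the 2 days, tested as an interaction in 1 limma fit of the 12 libraries, passed an unadjusted p of 0.05 with at least 2-fold for 3 of the 10 genes. Cxcl3, an ELR chemokine gene, had a value of −2.67 on the log2 scale (SE 0.95, adjusted p = 0.423). Retnlg, a resistin-like gene of neutrophils, had −2.42 (SE 0.99, adjusted p = 0.423), and Cxcl5 had −1.79 (SE 0.74, adjusted p = 0.423). None holds after adjustment over all genes.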

How the results depend on the processing

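Leaving out each library gave 0 to 4 genes called of the 10 at day 3, 3 to 8 at day 6, 0 to 3 over both days, 1 to 6 for day 6 against day 3 in sham, 2 to 5 in CAP and 1 to 7 for the difference between the days. The libraries behind these counts are named with each result. With pseudocounts of 1 and 0.01 TPM, 2 genes were called over both days, adding Csf3 and Cxcl5, where 0.399% and 1.19% of all genes were called. A joint fit of the 12 libraries called 1 gene at day 3, Retnlg, where 1.54% of all genes were called. Asking for an adjusted p under 0.05, an alternative chosen after seeing the data, gave 0 in every comparison. No filter and median-ratio scaling moved no count of the 10 genes by over 1.5 times. Without the filter Ly6g was added to the genes called at day 6 and from day 3 to day 6 in CAP, where 3.48% and 2.85% of all genes were called. Median-ratio scaling added Csf3 in CAP, where 3.53% were. The calls of Cxcl1, Cxcl5 and Csf3 at day 6 held in all other settings tried.

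Some values near 0 changed sign when 1 library was left out. At day 3 the log2 difference ran from −1.06 to 0.066 for Cxcl1, −0.45 to 0.55 for Cxcl5, −1.49 to 0.58 for Csf3, −0.34 to 0.40 for Cxcr2, −0.15 to 0.56 for Csf3r, −0.29 to 1.04 for Fpr1 and −0.44 to 0.26 for Ly6g. With median-ratio scaling that of Cxcr2 at day 3 was 0.015. Over both days it ran from −0.56 to 0.30 for Cxcl2 and −0.48 to 0.33 for Cxcl3. In sham from day 3 to day 6 it ran from −0.97 to 0.070 for Cxcl5, −0.14 to 0.59 for Cxcr2, −0.35 to 1.04 for Retnlg and −0.44 to 0.11 for Ly6g, and in CAP from −0.78 to 0.037 for Cxcl1, −1.18 to 0.77 for Cxcl2 and −1.31 to 0.34 for Fpr1. The cause was not tested.

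Same-numbered libraries of CAP and sham had correlations of their deviations from the group means of −0.17, 0.03 and 0.02 at day 3 and 0.03, 0.12 and 0.11 at day 6. Libraries with different numbers had −0.19 to 0.18 at day 3 and −0.10 to −0.004 at day 6. The same-numbered values were thus all above the others at day 6 but not at day 3. The labels number the replicates without naming pairs, and the numbers were not taken as pairs in the main fits. With a replicate block the counts were 0 at day 3, 4 at day 6 (adding Cxcl3), 1 over both days, 3 in sham, 2 in CAP and 2 for the difference between the days (losing Retnlg). Of all genes, 3.96% were called with the block at day 6 and 5.11% for the difference between the days.

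Over all genes, the number called with a pseudocount of 1 TPM was 154 at day 3, 385 at day 6, 74 over both days, 444 in sham and 331 in CAP, against 290, 697, 200, 904 and 666. Without the filter it was 568 at day 3 and 400 over both days. TPM hides the depth behind low values such as those of Ly6g.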
